A study of Mus musculus with 4 samples.

Results

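The genes described here lie on the distal part of mouse chromosome 14, from position 37688122 to 123382483 of the mm9 build, and were chosen because expression along this interval was lower in the leukaemia line B140H than in its parent B140P. The interval holds 554 listed genes. Of these, 310 had a mean FPKM (fragments per kilobase of transcript, scaled to the mapped fragments of the library) under 1 over the 4 libraries, and 22 others were left out by name, among them proteasome, solute carrier and numbered zinc finger genes. The remaining 222 genes, out of 10066 expressed genes (mean FPKM of at least 1) and 21889 listed in all, are called the members. Since the values of B140H and B140P chose the interval, those values are given as a description and support nothing by themselves.

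RNA was sequenced from 4 acute myeloid leukaemia cell lines of BXH-2 mice, an inbred strain prone to this leukaemia. The parents B117P and B140P were sensitive to Ara-C (cytarabine), a nucleoside drug that stops DNA replication, with labelled IC50 values of about 150 and 110 ng/ml. B117H and B140H were highly resistant lines derived from them, with labelled IC50 values of about 160 and 60 µg/ml, and the labels record exposure to rising Ara-C concentrations and passage without the drug. Each line was 1 library, so no difference below has a replicate error or a test, and each pair of lines differs by the derivation as a whole, whatever it selected. A parent and its derivative are called a lineage, B117 or B140.

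Distal chromosome 14 of the mouse carries Rb1, the retinoblastoma gene, whose protein holds back E2F transcription factors and so the entry into DNA replication. It also carries genes of the immune system such as Ripk3, the kinase that triggers necroptosis, Lcp1, the actin bundler of white blood cells, and Irf9, a part of the interferon-activated transcription complex. Genes that neighbour each other on a chromosome share the number of copies of that chromosome in a cell, while each keeps its own promoter.

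The starts of 4 members are shown first, because Ripk3 and Kctd12 had some of the lowest ratios of B140H to B140P, Itm2b the highest, and Tpt1 the highest level. Each sequence is the 250 bases before the annotated start, 5′ to 3′ on the strand of the gene, from RefSeq on the build GRCm38.p6, with matches to the GC box GGGCGG or its reverse complement CCGCCC in capitals. The windows are chr14:55788858-55789107 on the minus strand for Ripk3, chr14:102982638-102982887 on the minus strand for Kctd12, chr14:73385290-73385539 on the minus strand for Itm2b and chr14:75845006-75845255 on the plus strand for Tpt1.
Ripk3: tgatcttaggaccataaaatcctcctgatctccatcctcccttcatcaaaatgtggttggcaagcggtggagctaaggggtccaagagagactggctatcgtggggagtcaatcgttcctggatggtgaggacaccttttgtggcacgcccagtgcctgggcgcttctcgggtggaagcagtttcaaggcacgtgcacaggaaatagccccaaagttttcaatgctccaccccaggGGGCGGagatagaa
Kctd12: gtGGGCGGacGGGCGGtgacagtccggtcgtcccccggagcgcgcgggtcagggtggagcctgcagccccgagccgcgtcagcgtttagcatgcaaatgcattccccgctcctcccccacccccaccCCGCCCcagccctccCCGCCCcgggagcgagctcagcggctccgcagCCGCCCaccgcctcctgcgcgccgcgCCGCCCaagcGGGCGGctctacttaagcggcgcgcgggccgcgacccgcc
Itm2b: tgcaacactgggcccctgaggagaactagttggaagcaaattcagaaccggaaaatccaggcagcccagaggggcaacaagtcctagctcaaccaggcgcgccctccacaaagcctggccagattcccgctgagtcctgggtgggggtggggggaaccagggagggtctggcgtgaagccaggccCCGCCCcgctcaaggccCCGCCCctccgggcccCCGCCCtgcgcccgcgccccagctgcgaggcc
Tpt1: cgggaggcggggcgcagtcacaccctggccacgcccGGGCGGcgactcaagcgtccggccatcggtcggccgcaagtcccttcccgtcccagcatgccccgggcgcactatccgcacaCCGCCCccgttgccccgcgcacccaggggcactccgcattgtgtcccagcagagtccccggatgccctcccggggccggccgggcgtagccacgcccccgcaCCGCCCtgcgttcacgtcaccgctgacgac
The windows hold 8, 36, 14 and 33 CG dinucleotides, in that order, so the pair with low ratios holds both the fewest and the most. Promoters were matched for 160 of the 222 members. GGGCGG in either orientation stood in 65.6% of the members' windows, in 61.2% of those of all expressed genes and in 33.0% of those of all genes in the table. The CCAAT box (CCAAT or ATTGG) stood in 36.9%, 37.4% and 34.5% of them, and TATAAA or TTTATA in 4.38%, 5.57% and 13.0%. TTTCCCGC or GCGGGAAA, a form of the E2F site, stood in 1.88%, 2.07% and 0.929%. None of these 4 motifs contains another, and the median count of CG dinucleotides was 17 in members and in all expressed genes.

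The libraries held an estimated 22200000 (B117P), 19600000 (B117H), 19100000 (B140P) and 24500000 (B140H) fragments, at which 3 fragments on a transcript of 2 kb correspond to 0.0612 to 0.0784 FPKM. All 13 listed genes of 14 myeloid leukaemia markers were at 1 FPKM or more in both lines of lineage B117, against 9 in B140P and 8 in B140H. Kit, the receptor for stem cell factor, was listed at 0 in both lines of lineage B140. Of 6 B cell markers, 3 were at 1 FPKM or more in each line of lineage B140, with summed levels of 76.6 FPKM in B140P and 104 FPKM in B140H, against 2.07 FPKM in B117P and 0.634 FPKM in B117H. Ebf1, an early B cell transcription factor, was at 24.7 FPKM in B140P and 23.7 FPKM in B140H. No T cell or stromal marker reached 1 FPKM in any line, and of the 6 erythroid markers 1 or 2 did in each. The part of these markers in the results below was not tested.

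Most members were modestly lower in B140H than in B140P, and only a few were much lower. Ratios are given as log2 of (FPKM + 1) in the resistant line over (FPKM + 1) in its parent, which understates changes of low genes. The median log2 ratio of the members was -0.37, with quartiles of -0.55 and -0.14, whereas that of all expressed genes was 0.11. Below 0 were 193 of the 222 members, beside 35.6% of all expressed genes. Lower by at least 1.5-fold were 47 members, beside 4.68% of all expressed genes, and higher by that much were 3, beside 8.39%. Lower by at least 2-fold were 10 members, beside 1.63%, and none was higher by 2-fold, beside 2.31%. This contrast chose the interval, so nothing is read from these shares. Over all expressed genes the split at 1.5-fold was 471 lower and 845 higher, and after both libraries were centred on the median ratio, a shift of 0.11, it was 703 lower and 546 higher. The members then had a median of -0.48, with 76 lower and 3 higher. In TPM without small RNA genes, all expressed genes split into 911 lower and 556 higher, and the members into 99 lower and 3 higher.

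Without a pseudocount, the shift was described in the 209 members with a mean of 1 FPKM or more over B140P and B140H. The median member of these had 74.3% of its B140P level left in B140H, with quartiles of 65.1% and 88.3%. The other expressed genes of lineage B140, taken in the same way, had a median of 111%. The values of B140P and B140H chose the interval, so these shares are a description only. The other 13 members were under 1 FPKM on average in lineage B140 and entered the set through lineage B117, and their median ratio in lineage B140 was -0.01. Lgals3, which encodes galectin-3, a sugar-binding protein of macrophages, was the extreme case, at 79.3 FPKM in B117P and 34.9 FPKM in B117H but 0.0405 FPKM in B140P and 0 in B140H.

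In lineage B117, which did not choose the interval, the members as a whole showed no such shift. Their median log2 ratio was 0.03, with quartiles of -0.18 and 0.19, beside -0.03 for all expressed genes. Below 0 were 103 of 222 members, beside 53.4% of all expressed genes. Lower by at least 1.5-fold were 13 members, beside 9.16%, and higher were 7, beside 4.66%. After scaling to TPM without small RNA genes that split became 12 and 12. Lower by at least 2-fold were 2 members, Lgals3 and Rpph1, beside 3.21%, and none was higher by 2-fold, beside 1.41%. The members' median share of the parental FPKM left in B117H was 103%, over members with a mean of 1 FPKM or more in that lineage. Gene by gene, 177 of the 222 members (79.7%) had a lower ratio in lineage B140 than in lineage B117, and 37.8% of the other expressed genes did. That count uses the ratio in lineage B140, which chose the interval, so nothing is read from it. Pearson's r between the members' ratios in B140 and in B117 was -0.16 and Spearman's rho -0.08, as a description over 222 genes measured in the same 4 libraries. The lineages share no library.

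**Figure D1:**
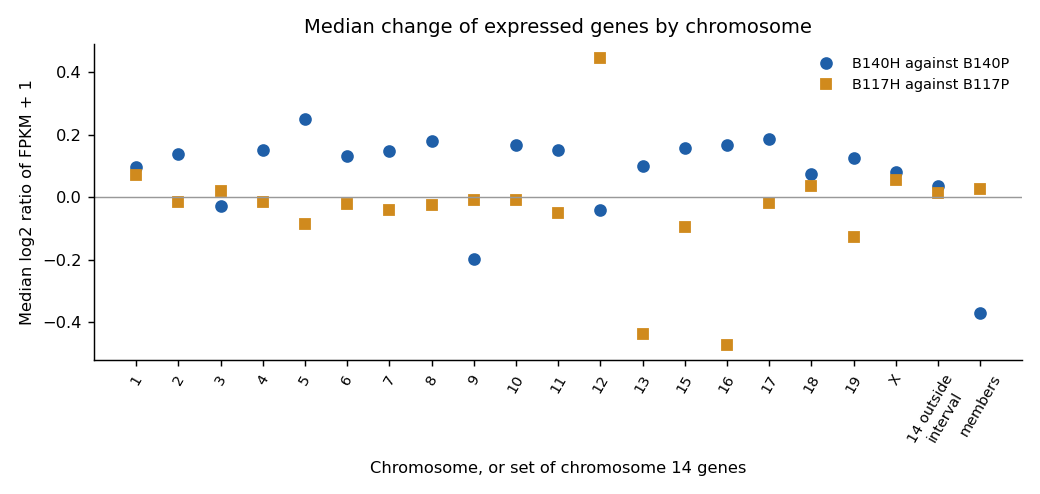
Median log2 ratio of FPKM + 1 in the resistant over the parental line (y axis) for the expressed genes of each chromosome and, for chromosome 14, for the 102 genes outside the interval and the 222 members (x axis), with circles for lineage B140 and squares for lineage B117. In lineage B140 the members at -0.37 are the lowest point, below chromosome 9 at -0.20, while in lineage B117 chromosomes 13 and 16 are the lowest, at -0.44 and -0.47. The members are part of a chromosome, chosen by the ratio in lineage B140, so nothing is read from their rank. Chromosome 14 as a whole, which is not drawn, had a median of -0.24 in lineage B140.

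The rest of chromosome 14 did not share the shift. Since the values of lineage B140 chose the interval, its contrast with the rest in that lineage is a description only. In lineage B140 the 102 expressed genes before the interval had a median of 0.04, with 46 below 0, and in lineage B117 one of 0.01. Of the other chromosomes, only 9, 12 and 3 had medians below 0 in lineage B140, at -0.20, -0.04 and -0.03, and the highest was chromosome 5 at 0.25. The 22 genes of the interval that were left out by name had a median of -0.31 in lineage B140, with 19 of 22 below 0.

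Along the interval the lower level was spread over its length and was absent at its start. The last 3 expressed genes before it were Glud1, glutamate dehydrogenase, the predicted gene Gm3219 and Wapal, a cohesin release factor, with log2 ratios of 0.08, 1.43 and -0.01 in lineage B140. Just inside, Gcap14, Ghitm and Tspan14 were at 0.03, 0.11 and -0.13. The level of Ghitm, a protein of the inner mitochondrial membrane, was 72.2 FPKM in B140P and 78.0 FPKM in B140H. Txndc16, a thioredoxin-domain protein at 45754123 to 45839069, was the first member from the start that was lower by 1.5-fold, and it passed 2-fold. The last members, Pcca, A2ld1 and Tmtc4, were at -1.07, 0.12 and -0.69, and the 3 listed genes beyond them, Nalcn, Itgbl1 and Fgf14, were listed at 0 in all 4 libraries. At the limit on expression, the members just above a mean of 1 FPKM were Fam158a, Nynrin and Ang, with log2 ratios of -0.02, 0 and 0.41, and just below it Trim13, Scel and Cdh24 had -0.32, 0 and -0.19.

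In bins of 10 Mb, the members' median log2 ratio in lineage B140 was -0.38 from 40 to 50 Mb (27 members), -0.24 from 50 to 60 Mb (74), -0.40 from 60 to 70 Mb (37) and -0.40 from 70 to 80 Mb (48). Beyond the gene-poor stretch that follows, it was -0.61 from 100 to 110 Mb (11 members) and -0.61 from 120 Mb to the end (12). The 2 members before 40 Mb had a median of 0.07, and the bins from 80 to 90, 90 to 100 and 110 to 120 Mb held only 3, 5 and 3 members, with medians of -0.23, -0.50 and -0.41. Every bin of members from 40 Mb on therefore had a median below 0, and none of the 4 bins before the interval had one below -0.01. The values of lineage B140 chose the interval, so this contrast is a description and nothing is read from it.

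**Figure D2:**
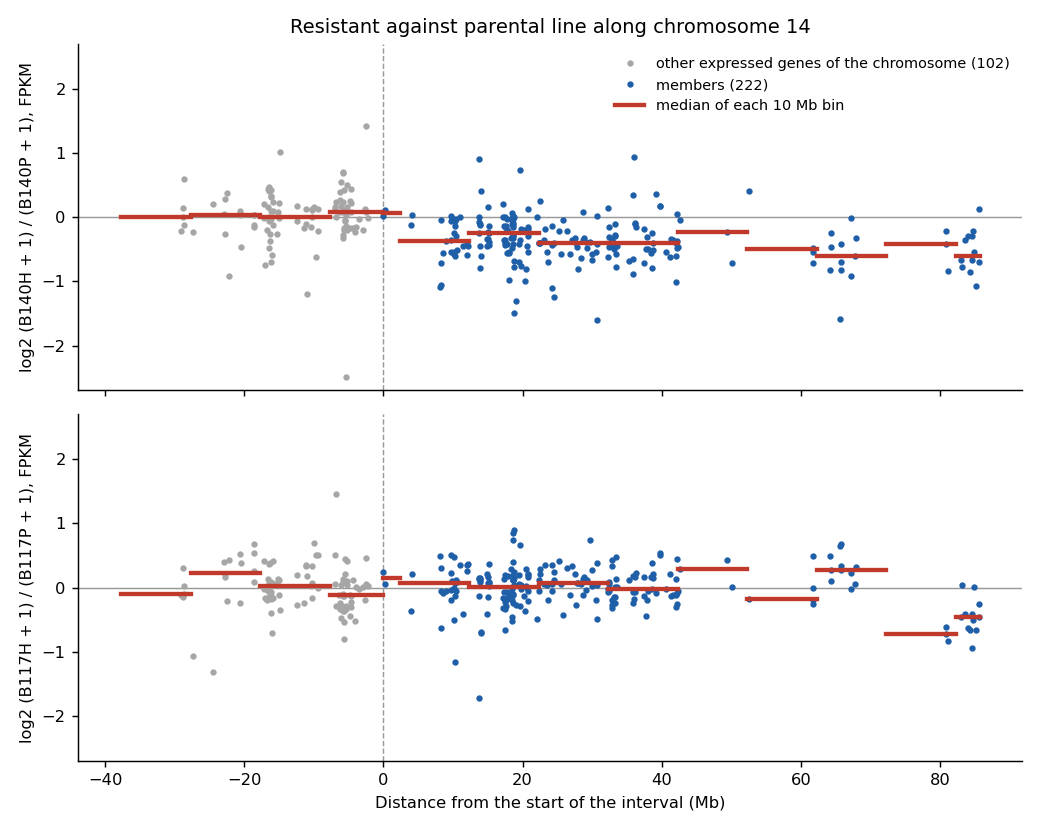
Log2 ratio of FPKM + 1 in the resistant over the parental line (y axis) against the distance of each gene from the start of the interval in Mb (x axis), for lineage B140 (top) and lineage B117 (bottom), with members in blue, the other expressed genes of the chromosome in grey and the median of each 10 Mb bin as a red line. In the top panel the medians step from 0.07 to -0.38 inside the interval and stay below 0, and in the bottom panel the medians of the members lie between -0.18 and 0.28 except in the last 2 bins, at -0.72 and -0.46.

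The end of the interval was lower in lineage B117 as well. The 15 members from Tgds to Tmtc4, from 118511133 to the end of the interval, had a median of -0.50 in lineage B117, where 13 of 15 were below 0. They also had a median of -0.55 in lineage B140, with 14 of 15 below 0. Of these 15 members, 7 were lower by at least 1.5-fold in lineage B117, beside 9.16% of all expressed genes. Over the whole interval 13 members were. In the 11 members from 100 to 110 Mb the medians had opposite signs, 0.28 in lineage B117 and -0.61 in lineage B140. The stretch from Tgds on was set apart after its values were seen.

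Lower by at least 1.5-fold in both lineages were 5 members, beside 0.487% of all expressed genes. Of these, Abcc4, Dock9, Gpr183 and Pcca lay in that last stretch, and Rnase4 did not. All 5 were picked by their ratios, and since the ratio in lineage B140 also chose the interval, nothing is read from the count. Abcc4, an exporter of cyclic nucleotides and nucleotide analogues, was at 41.4 and 22.9 FPKM in B117P and B117H, and at 16.01 and 8.55 FPKM in B140P and B140H. Its log2 ratios were -0.83 and -0.83. Dock9, an activator of the small GTPase Cdc42, was at 13.6 and 8.23 FPKM in B117P and B117H and at 22.4 and 11.9 FPKM in B140P and B140H, ratios of -0.66 and -0.86. Pcca, the alpha subunit of propionyl-CoA carboxylase, was at 32.3 and 20.1 FPKM in B117P and B117H and at 29.0 and 13.3 FPKM in B140P and B140H, ratios of -0.66 and -1.07. In Dock9 and Pcca both resistant lines were lower than either parent, while in Abcc4 B117H at 22.9 FPKM exceeded B140P. Gpr183, an oxysterol receptor that guides immune cells, was at 8.93 and 4.16 FPKM and at 1.83 and 0.783 FPKM, but its listed span overlaps Gpr18 and Ubac2. Rnase4, a secreted ribonuclease, shares its listed span with Ang, so that the authors' counting could have split their reads, and was at 5.80 and 3.23 FPKM and at 10.2 and 6.35 FPKM.

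The parental lines themselves differed along the interval. From 60 to 75 Mb, from Setdb2 to Sucla2, 43 of 61 members were at least 2-fold higher in B140P than in B117P, beside 5.83% of all expressed genes. The median log2 ratio of B140P over B117P there was 1.42, whereas it was 0.10 over the 101 members from 40 to 60 Mb, 0.15 over the expressed genes before the interval and 0.00 over all expressed genes. Between the resistant lines B140H and B117H the same 61 members had a median of 1.02, with 31 higher by 2-fold, beside 9.69% of all expressed genes. The stretch was bounded from bins of 5 Mb after the values were seen, in which the median was 0.25 from 55 to 60 Mb, 1.22 from 60 to 65 Mb, 1.46 from 65 to 70 Mb, 1.51 from 70 to 75 Mb and 0.64 from 75 to 80 Mb. The ratio of the parents and that of B140H over B140P share the library B140P, and the lineages may have been normalised separately, so these levels across lineages carry that limit.

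Genes of very different roles in that stretch showed the same order of lines. The 4 described next were chosen after their values were seen. Elp3, the catalytic subunit of Elongator, which modifies transfer RNAs, was at 12.1 FPKM in B117P, 12.6 FPKM in B117H, 42.3 FPKM in B140P and 27.0 FPKM in B140H. Ppp2r2a, a regulatory subunit of protein phosphatase 2A, was at 11.7, 14.3, 51.0 and 33.8 FPKM in the same lines. Xpo7, a nuclear exporter, was at 3.62, 4.05, 16.003 and 10.4 FPKM. In all 3 genes B140P was highest, B140H lay between it and the lines of lineage B117, and those 2 differed by less than 1.5-fold. Dok2, an adaptor that dampens tyrosine kinase signals in blood cells, was at 1.04, 1.84, 66.2 and 38.4 FPKM, with both lines of lineage B140 far above both of lineage B117.

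**Figure D3:**
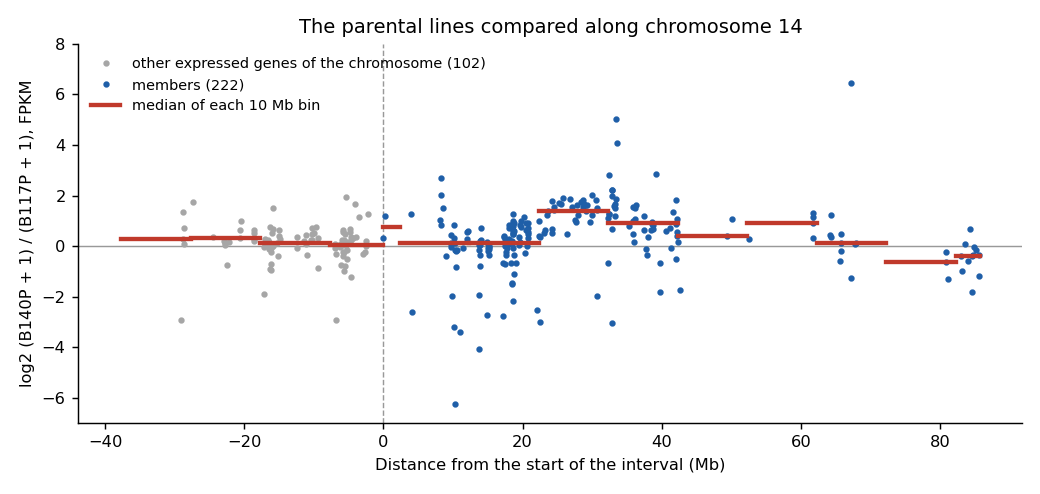
Log2 ratio of FPKM + 1 in B140P over B117P (y axis) against distance from the start of the interval in Mb (x axis), with members in blue, other expressed genes of chromosome 14 in grey and 10 Mb bin medians as red lines. The median is 0.12 in the bin from 50 to 60 Mb, 1.39 in the bin from 60 to 70 Mb and 0.11 in the bin from 100 to 110 Mb.

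The members with the lowest ratios in lineage B140 had no single role. Ripk3 was at 24.8 FPKM in B140P and 8.14 FPKM in B140H, while lineage B117 was at 31.7 and 35.2 FPKM. B140H alone was low among the 4 lines, with a log2 ratio of -1.50 against 0.15 in lineage B117. It kept 32.8% of the parental FPKM, with an exact Clopper-Pearson 95% interval of 25.5% to 41.7% on the estimated fragments. Such intervals cover counting error only, here and below. Kctd12, an auxiliary subunit of the GABA-B receptor, was at 9.20 and 2.41 FPKM in lineage B140 and at 14.5 and 23.2 FPKM in lineage B117. Its ratios of -1.58 and 0.65 thus pointed in opposite directions, and B140H kept 26.1% (22.1% to 30.8%) of the parental level. Mcpt8, a basophil protease, was at 15.5 and 5.65 FPKM in lineage B140 and at 25.5 and 20.9 FPKM in lineage B117, ratios of -1.31 and -0.28.

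Gnrh1, the precursor of gonadotropin-releasing hormone, had the lowest ratio at -1.60, from 4.69 to 0.872 FPKM, but on an estimated 38 and 9 fragments. The share left was 18.6%, with a wide interval of 7.86% to 38.9%, and lineage B117 was at 1.0005 and 1.60 FPKM. Dleu2, a noncoding gene that hosts microRNAs, was at 3.45 and 0.889 FPKM in lineage B140 and at 0.528 and 0.653 FPKM in lineage B117, and it shares its listed span with Trim13. Arl11, a small GTPase-like protein of macrophages, was at 4.86 and 1.74 FPKM in lineage B140 and at 3.05 and 3.20 FPKM in lineage B117. Txndc16 was at 5.52 and 2.06 FPKM in lineage B140 against 2.21 and 3.51 FPKM in lineage B117. In Arl11, Txndc16 and Gnrh1 B140H was the lowest of the 4 lines, but in Txndc16 it lay close to B117P and in Gnrh1 the counts were few. Styx, a catalytically inactive phosphatase that overlaps Gnpnat1, was at 24.98 and 11.5 FPKM in lineage B140 and at 3.06 and 4.01 FPKM in lineage B117. Naa16, an auxiliary subunit of an N-terminal acetyltransferase, was at 30.1 and 14.4 FPKM in lineage B140 and at 7.80 and 8.64 FPKM in lineage B117. In both of these, B140H stayed above lineage B117.

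Against the general direction, 3 members were higher in B140H by at least 1.5-fold. Itm2b, a membrane protein that interferes with amyloid precursor processing, was at 115.6 FPKM in B140P and 221 FPKM in B140H and at 105 and 92.3 FPKM in lineage B117. B140H was alone high, with a ratio of 0.93, and had 192% of the parental level (181% to 203%). Pspc1, a paraspeckle protein that binds RNA, was at 21.1 and 35.6 FPKM in lineage B140 and at 19.0 and 15.4 FPKM in lineage B117. Rpph1, the RNA of ribonuclease P, a small RNA named after its values were seen, was at 7.18 and 14.3 FPKM in lineage B140 and at 30.2 and 8.42 FPKM in lineage B117, with opposite ratios of 0.91 and -1.73. The next highest ratios in lineage B140 were 0.41 for Ang, the ribonuclease angiogenin, and 0.36 for Tsc22d1, a leucine-zipper regulator. Ang went from 1.40 to 2.20 FPKM and Tsc22d1 from 128 to 165 FPKM, while Tsc22d1 in lineage B117 was at 16.9 and 15.9 FPKM.

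**Figure D4:**
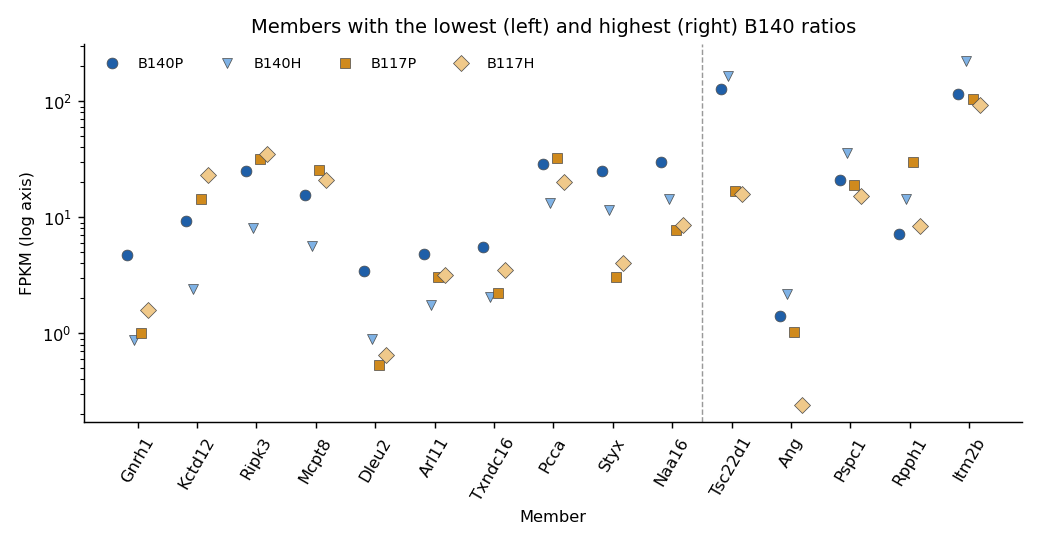
FPKM on a log axis (y) in each of the 4 lines for the 10 members with the lowest and the 5 with the highest log2 ratios in lineage B140 (x axis), with 1 symbol per line. B140H lies below B140P in the 10 members on the left, as with Ripk3 at 8.14 against 24.8 FPKM, and above it in the 5 on the right.

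Rb1 was among the members that were not lower. It was at 12.3 FPKM in B140P and 15.95 FPKM in B140H, and at 5.78 and 6.69 FPKM in lineage B117, ratios of 0.35 and 0.18. Its estimated fragments in lineage B140, 97 and 160, gave 129% of the parental level with an interval of 99.4% to 167%. That estimate took a length of 0.41 kb, the median of the annotated transcripts. A longer transcript would give more fragments and a narrower interval. Lpar6, a lysophospholipid receptor, shares the whole listed span of Rb1, so that the authors' counting could have split their reads. Lpar6 went the other way, from 9.90 to 4.91 FPKM in lineage B140, a ratio of -0.88. Outside the interval, 8 of the 25 expressed genes of the RB1 pathway were higher by at least 1.5-fold in B140H, beside 8.39% of all expressed genes, and 2 were lower. The 8 were Ccnd3, Ccne1, E2f1 and E2f2, and the genes Cdkn1a, Cdkn2a, Cdkn2c and Cdkn2d of inhibitors of cyclin-dependent kinases. The count therefore gives the pathway no direction. In lineage B117, 1 of the 25 was higher and 4 were lower, beside 4.66% and 9.16%. The 4 genes of the pathway named next were chosen after their values were seen, as the highest and lowest ratios in lineage B140. Ccne1, the cyclin E1 gene, was at 12.3 and 30.5 FPKM in lineage B140 and at 13.9 and 5.33 FPKM in lineage B117. Cdkn2a, which encodes the inhibitor of CDK4 and CDK6 and the p53 activator ARF, was at 63.4 and 121 FPKM in lineage B140 and at 206 and 193 FPKM in lineage B117. Ccnd1, the cyclin D1 gene, was at 100.2 and 59.0 FPKM in lineage B140 and at 103.8 and 80.4 FPKM in lineage B117. Tfdp2, a partner of E2F factors in DNA binding, was at 12.2 and 7.20 FPKM against 3.44 and 5.23 FPKM. None of 20 E2F target genes of DNA replication had a ratio below 0 in lineage B140, beside 35.6% of all expressed genes. Their median was 0.41, beside 0.11, and 4 of them were higher by 1.5-fold, beside 8.39%. In lineage B117, 5 of the 20 were below 0, beside 53.4%, with a median of 0.22, beside -0.03. After centring, 5 RB1 pathway genes and 2 E2F targets were higher by 1.5-fold in lineage B140, beside 546 of 10066 expressed genes. In lineage B117 they numbered 1 and 0, beside 518 of 10066. The median of the E2F targets was then 0.30 in lineage B140 and 0.25 in lineage B117. In TPM without small RNA genes it was 0.26 and 0.27, so the gap between the lineages in these targets depended on the scaling.

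Grouped by role, 176 members fell into 8 lists, and each list had a median ratio below 0 in lineage B140. These lists were drawn up with earlier results of these data known. All expressed genes had a median of 0.11 in lineage B140 and -0.03 in lineage B117. At 1.5-fold, 4.68% of them were lower and 8.39% higher in lineage B140, and 9.16% and 4.66% in lineage B117. These shares stand beside all counts of lower and higher members in the lists below, and nothing is read as particular to a list.

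Of 22 cell cycle and mitosis members, 3 were lower by 1.5-fold and none higher, with medians of -0.38 in lineage B140 and 0.03 in lineage B117. Mzt1, a component of the gamma-tubulin ring complex, was at 44.0 and 26.5 FPKM in lineage B140 and at 17.3 and 24.9 FPKM in lineage B117. Ift88, needed to build cilia, was at 2.85 and 0.933 FPKM in lineage B140 and at 3.64 and 2.61 FPKM in lineage B117. Haus4, a subunit of the augmin complex of the spindle, was at 41.5 and 32.2 FPKM in lineage B140, and Pbk, a mitotic kinase, at 62.7 and 66.6 FPKM. Of 18 chromatin and transcription members, 3 were lower and none higher, with medians of -0.38 and 0.05. Zmym2, a zinc finger protein of a corepressor complex, was at 18.3 and 10.4 FPKM in lineage B140 and at 10.5 and 10.4 FPKM in lineage B117. Tdrd3, a reader of methylated arginine, was at 15.6 and 9.18 FPKM against 6.97 and 6.98 FPKM. Supt16h, a subunit of the histone chaperone FACT, was at 76.2 and 60.0 FPKM against 81.2 and 85.0 FPKM, with a listed span shared with Rpgrip1. In Zmym2 and Tdrd3 the parental line B140P stood above the 3 other lines.

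Of 21 RNA and translation members, 7 were lower and 1, Pspc1, was higher, with medians of -0.45 and 0.03. Tpt1, the translationally controlled tumour protein, was the most abundant member, at 2795 FPKM in B140P and 1613 FPKM in B140H and at 1447 and 1897 FPKM in lineage B117. Its ratios were -0.79 and 0.39, but it overlaps the listed gene Tpt1p, so that the authors' counting could have split its reads. Hnrnpc, a nuclear RNA-binding protein, was at 145 and 162 FPKM in lineage B140 and at 167 and 150.7 FPKM in lineage B117. Of 23 members of ubiquitin, autophagy and endoplasmic reticulum functions, 5 were lower and 1, Itm2b, was higher, with medians of -0.25 and 0.11. Nedd8, the ubiquitin-like activator of cullin ligases, was at 267 and 251 FPKM in lineage B140 and at 183 and 171 FPKM in lineage B117. Dad1, a subunit of the oligosaccharyltransferase, was at 142 and 143 FPKM against 225 and 179.6 FPKM. Hnrnpc, Nedd8 and Dad1 thus differed by less than 1.5-fold in both lineages despite high levels.

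Of 28 trafficking and cytoskeleton members, 6 were lower and none higher, with medians of -0.44 and 0.06. Tbc1d4, a GTPase-activating protein for Rab proteins, was at 4.26 and 1.97 FPKM in lineage B140 and at 2.88 and 4.44 FPKM in lineage B117. Ipo5, a nuclear importer, was at 136 and 106 FPKM against 130.3 and 97.6 FPKM, lower in both resistant lines by similar ratios of -0.36 and -0.41. Bin3, a BAR-domain protein of membrane curvature, was at 31.8 and 24.5 FPKM against 272 and 218 FPKM. It shares its whole listed span with 2610301G19Rik, which was at 32.9 and 25.5 FPKM against 7.55 and 6.11 FPKM, so that the authors' counting could have split their reads and the level of Bin3 across lineages is uncertain. Of 30 metabolic members, 5 were lower and none higher, with medians of -0.30 and -0.06. Besides Pcca, Extl3, a glycosyltransferase of heparan sulphate synthesis, was at 8.46 and 4.38 FPKM against 3.07 and 3.28 FPKM. Esd, an esterase, was at 84.2 and 73.9 FPKM against 53.9 and 49.1 FPKM.

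Of 24 immune and myeloid members, 7 were lower and none higher in lineage B140, with a median of -0.48. In lineage B117, 6 were lower and 1 was higher, with a median of -0.07. Lcp1 was at 218 and 176 FPKM in lineage B140 and at 278 and 244 FPKM in lineage B117. Stk24, a kinase of the MST family, was at 62.7 and 51.0 FPKM against 95.7 and 61.7 FPKM, and lies in the last stretch of the interval. Of 10 signalling and cell death members, 4 were lower and none higher in lineage B140, with a median of -0.45, and all 10 were below 0. Bnip3l, a receptor for the removal of mitochondria, was at 40.1 and 24.9 FPKM in lineage B140 and at 16.4 and 16.7 FPKM in lineage B117. Mapk1ip1l, a protein of unknown function, was at 60.4 and 39.4 FPKM against 55.8 and 50.9 FPKM. The 46 members in no list had medians of -0.35 and 0.05.

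**Figure D5:**
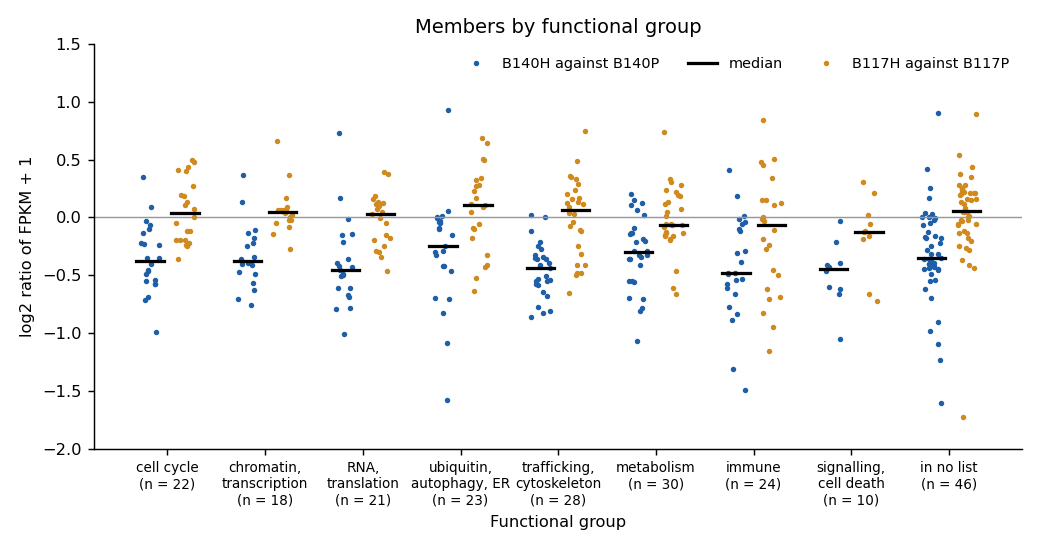
Log2 ratio of FPKM + 1 in the resistant over the parental line (y axis) for members of each functional group (x axis, with the number of members), in blue for lineage B140 and orange for lineage B117, with black lines at the medians. The medians of lineage B140 lie between -0.25 and -0.48, and those of lineage B117 between -0.13 and 0.11.

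The members' ratios were also set beside level, length and overlap. The median in lineage B140 was -0.42 for 42 members with a mean of 1 to 5 FPKM, -0.40 for 103 members of 5 to 20 FPKM and -0.33 for 77 members of 20 FPKM or more. Across the members, the ratio had a Spearman correlation of 0.11 with the mean FPKM and, over 220 members with a known length, of -0.21 with transcript length. The other expressed genes had rank correlations of 0.26 and -0.18, and all these points share the same libraries. The 41 members whose listed span overlaps another gene had a median of -0.36 and the other 181 one of -0.38.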

How the data were processed

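RNA of 4 cell lines was sequenced, 1 library each. The authors deposited FPKM values per gene. The submitters' processing notes name TopHat2 2.0.4, Cuffdiff and the build mm9, with no order. Counts and annotation are not given in the sources used here. Listed starts were taken as counted from 0, so 1 was added. Members were genes of the interval with a mean FPKM of 1 or more. Ratios were log2 of FPKM with a pseudocount of 1, and calls were folds of 1.5 or 2, with no test, since each group is 1 library. Fragments were estimated from the step between low values of FPKM times length, in 839 genes with 1 annotated transcript that spans 3 kb or more (GENCODE M21). Between 75.6% and 84.7% of those values lay within 0.15 of a whole fragment, which is no independent check because the unit came from the same values. Intervals use the median transcript length, so they are too wide where the expressed transcript is longer and too narrow where it is shorter.

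The members and lists were chosen with earlier results of these data known. Genes named were Rb1, the 10 lowest and 5 highest members in lineage B140, up to 2 per list by level and 2 by lowest ratio, those past 2-fold in lineage B117 and those at the limits of the rule. Small RNAs and clones were counted only, except Rpph1, those at a limit and 1 that overlaps Bin3. Rpph1, the third gene at each limit and the genes said to be so in the text were chosen after their values were seen. Alternatives were no filter, a minimum of 5, a pseudocount of 0.1, centring, TPM, names kept and overlapping genes left out, and, after seeing the data, members at 1 FPKM or more in lineage B140 and bins of 5 Mb. The steps were tested on simulated data. Some single genes are not reported here. Software was matplotlib 3.10.9, scipy 1.17.1, pandas 2.3.3 and numpy 2.4.6 under Python 3.11.15.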

Additional observations from a re-analysis of the deposited data

Results flagged for a closer look

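The members' median log2 ratio was -0.37 in lineage B140 and 0.03 in lineage B117, a difference between the lineages that was not tested, since each line is 1 library, and the first of these values chose the interval. The ratios of Kctd12 and Rpph1 were past 1.5-fold in opposite directions in the lineages, also untested. Kctd12 had ratios of -1.58 in lineage B140 and 0.65 in lineage B117. Rpph1 had 0.91 and -1.73.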

How the results depend on the processing

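The median of the members in lineage B140 stayed below 0 under every alternative except the one without a filter, where it was 0 because 215 of 502 genes had a ratio of exactly 0, with 238 below and 49 above. It was -0.48 after centring and -0.55 in TPM. The other chromosome 14 genes were then at -0.077 and -0.088. Members lower by 1.5-fold in lineage B140 numbered 76 after centring and 99 in TPM, and those lower by 2-fold 19 with a pseudocount of 0.1, 20 in TPM and 6 with a minimum mean FPKM of 5, where 180 members remained. Of 592 values of the 39 named members under alternatives, 575 moved by at most 0.25 and none changed sign once past 1.5-fold. No paired analysis was possible because each comparison described, within 1 lineage, sets 1 library against 1. A pairing of resistant with parental lines over both lineages was not run. Depth limits low members such as Gnrh1, and no replicate exists to leave out.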
